A study of Mus musculus with 12 samples.

Results

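The respiratory chain of the inner mitochondrial membrane is built from 5 protein complexes, most subunits of which are encoded in the nucleus. Members were taken by gene symbol alone, as the Nduf, Sdh, Uqcr, Cox4 to Cox8 and Atp5 genes, with numbered copies of a gene summed and pseudogene names left out. This gave 84 of 46103 genes, of which 35 belong to complex I, 4 to complex II, 8 to complex III, 20 to complex IV and 17 to complex V. Ndufa4 and Ndufa4l2 were counted in complex IV, where the protein NDUFA4 sits, although their names place them in complex I. The names Atp5s, Atp5sl and Cox7a2l follow the pattern without encoding a subunit of a single complex, and they were kept and are named as such. RNA was above 0 for 82 members, and 78 members reached 1 RPKM (reads per kb of transcript and per M reads) in at least 3 libraries and were tested.

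The RNA came from a mouse model of chronic myeloid leukemia (CML), made by retroviral transfer of human BCR-ABL1 into bone marrow of mice that carry a G0 marker (G0M, a fusion of mVenus and a mutant p27), whose expression depends on Vav1-Cre, and by transplantation into irradiated C57BL/6 recipients. All libraries were made from 100 BCR-ABL1+ CD27+ KSL cells (lineage-negative, Sca1+ and c-Kit+) sorted from bone marrow and spleen, so BCR-ABL1, CD27 and transplantation were shared by all groups. DP cells were G0M+ and SP cells G0M- from vehicle-treated mice, IMDP cells were G0M+ and IMSP cells G0M- from mice that received the BCR-ABL1 kinase inhibitor imatinib by oral gavage once a day, and each group had 3 libraries. The sources do not say which libraries shared mice, so that p values measure the spread between libraries, which may be technical. The imatinib libraries are numbered before all vehicle libraries, and treatment and library order cannot be told apart.

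In mitochondria, complex I (NADH dehydrogenase) and complex II (succinate dehydrogenase) pass electrons to ubiquinone, complex III (the bc1 complex) passes them to cytochrome c and complex IV (cytochrome c oxidase) passes them to oxygen. Complexes I, III and IV pump protons, and complex V (ATP synthase) uses the gradient to make ATP. Normal quiescent blood stem cells are described as relying less on oxidative phosphorylation than dividing progenitors do. That description does not carry over to CML stem cells by itself, and respiration was not measured here.

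By group means of RPKM, a relative measure, most members were lowest in IMDP cells. Of the 78 members tested, 61 were lower in IMDP than in IMSP cells and 0 were higher, beside 23.3% of all genes tested that were lower. The lowest group mean lay in IMDP cells for 74 members (94.9%), beside 52.0% of all genes tested. In vehicle-treated mice, 0 members passed the test between DP and SP cells, beside 1.98% of all genes that were lower. There, 68 of 78 members had a log2 fold change below 0. The population effect with imatinib minus that with vehicle passed for 0 members, so these effects are not shown to differ. Against vehicle, imatinib gave 2 lower members in G0M+ cells, beside 0.338% of all genes, and 0 in G0M- cells. The count in G0M+ cells was 0 after median scaling and ran from 0 to 11 with 1 library left out. The difference between IMDP and IMSP cells was shared by many highly expressed and short transcripts. The number of lower members came to 30 after median scaling and to 10 under cyclic loess, beside 9.33% and 7.06% of all genes. A correction for transcript length and level left 4 lower and 6 higher, beside 6.5% and 6.1% of all genes.

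Members made up 2.16% ± 0.228 (SD, n = 3) of the summed RPKM of a library in DP cells, 2.38% ± 0.149 in SP cells, 1.80% ± 0.125 in IMDP cells and 2.30% ± 0.121 in IMSP cells. The 3 IMDP libraries (1.68% to 1.93%) lay below the 9 others (1.96% to 2.55%). IMDP libraries also had the smallest summed RPKM over all features, 82832 to 103547 against 105253 to 133620 elsewhere, and 25.9% to 31.1% of the total reads lay on listed features in IMDP against 30.8% to 37.1% in the others. Reads on members numbered 21206 to 56968 per library, and a tested member had between 11 and 7275 reads in a library. In bulk RNA, fewer cells of a type and less RNA per cell cannot be told apart. The first DP, second SP, first IMDP and first IMSP library were the highest of their groups for 71, 57, 56 and 65 of the 78 members. Kit, Ly6a and Cd27, on whose proteins the cells were sorted, were above 0 in all 12 libraries, which does not tell the 4 groups apart.

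**Figure D1:**
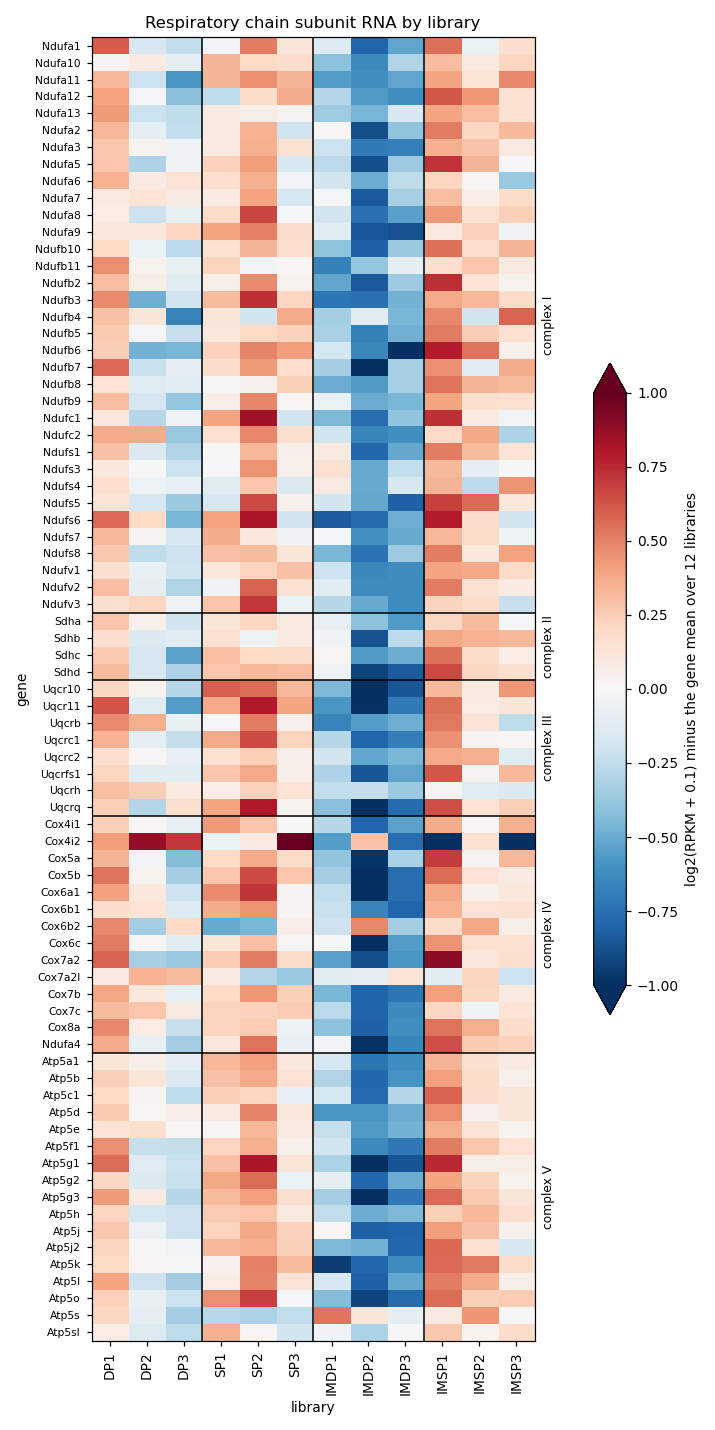
Each row is 1 of 77 of the 78 members tested and each column 1 library; color gives log2(RPKM + 0.1) minus the mean of the gene over 12 libraries, cut at 1 in both directions, with complexes separated by lines. The IMDP columns are the lowest for most rows, and the second IMDP library is the lowest of its group for 58 of 78 members.

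**Figure D2:**
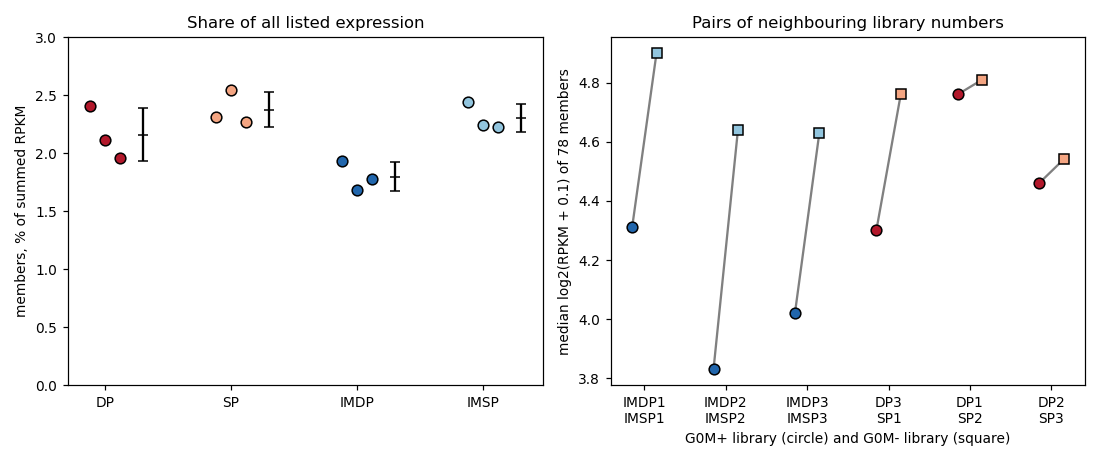
The left panel plots the percentage of summed RPKM held by the members in each library (points) with mean and SD of 3 libraries; the right panel plots the median log2(RPKM + 0.1) of 78 members in 6 pairs of libraries with neighbouring numbers. All 3 IMDP libraries lie between 1.68% and 1.93%, and the G0M+ library is lower in every pair, by 0.10 to 0.91 as the median difference over members.

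The promoters of 4 members are shown, since members that moved together can be set against their sequence. Windows of 250 bases before to 50 bases after the start came from RefSeq (GRCm38.p6) for 66 of the 84 members, in 71 windows. The first 3 belong to members that were lower in IMDP than in IMSP cells and hold the core site of nuclear respiratory factor 1 (NRF1, GCGCATGCG) and an ETS site (CCGGAAG), the kind of site bound by GABP. The fourth belongs to Cox7a2l, a factor of respiratory supercomplexes that was not lower and whose window holds neither motif. That window lies inside the annotated gene (83501918 to 83517330), at a start downstream of its outermost 5′ end. Sequence at the outermost start of Cox7a2l is not printed. Capitals mark matches to these motifs on either strand, with overlapping matches joined, and each window reads 5′ to 3′ on the strand of the gene.
Atp5k (chr5:108434350-108434649, minus strand): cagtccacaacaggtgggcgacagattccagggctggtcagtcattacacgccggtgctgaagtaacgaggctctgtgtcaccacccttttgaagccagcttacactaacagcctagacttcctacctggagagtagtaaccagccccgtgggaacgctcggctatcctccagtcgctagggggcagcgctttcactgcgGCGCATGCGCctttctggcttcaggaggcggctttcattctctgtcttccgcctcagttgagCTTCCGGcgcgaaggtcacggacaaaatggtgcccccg
Uqcr11 (chr10:80406772-80407071, minus strand): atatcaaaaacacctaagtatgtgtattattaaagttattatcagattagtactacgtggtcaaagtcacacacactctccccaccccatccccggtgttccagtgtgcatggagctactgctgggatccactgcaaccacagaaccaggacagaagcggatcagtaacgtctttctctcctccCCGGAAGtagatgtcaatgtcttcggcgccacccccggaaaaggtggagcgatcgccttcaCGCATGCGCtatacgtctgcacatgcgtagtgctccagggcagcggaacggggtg
Cox6a1 (chr5:115348909-115349208, minus strand): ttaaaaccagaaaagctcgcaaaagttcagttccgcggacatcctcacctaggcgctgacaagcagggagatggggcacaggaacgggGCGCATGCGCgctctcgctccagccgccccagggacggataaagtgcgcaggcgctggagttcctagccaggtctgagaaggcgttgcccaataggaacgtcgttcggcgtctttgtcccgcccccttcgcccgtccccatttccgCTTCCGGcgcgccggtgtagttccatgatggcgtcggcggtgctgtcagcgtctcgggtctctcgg
Cox7a2l (chr17:83514284-83514583, minus strand): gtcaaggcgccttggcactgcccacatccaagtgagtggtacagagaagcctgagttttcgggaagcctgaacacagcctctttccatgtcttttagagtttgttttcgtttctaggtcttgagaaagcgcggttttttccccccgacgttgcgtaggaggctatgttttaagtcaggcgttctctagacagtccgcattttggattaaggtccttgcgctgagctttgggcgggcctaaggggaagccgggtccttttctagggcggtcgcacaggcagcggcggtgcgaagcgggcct

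Exact matches to GCGCATGCG on either strand were present in 8 of the 71 member windows (11.3%), against 4.06% of 9939 windows of tested genes and 1.75% of all 32851 windows. The 8 genes were Atp5g2, Atp5k, Atp5l, Cox6a1, Ndufa8, Ndufa11, Uqcr11 and Uqcrc1. The ETS site CCGGAAG was found in 22.5% of member windows, 19.3% of windows of tested genes and 8.86% of all windows. The YY1 core AAGATGGCG was found in 9.86%, 3.42% and 1.4% of them, in the same order, and the CCAAT box (CCAAT) in 42.3%, 38.0% and 37.4%. Of the 55 windows of members lower in IMDP than in IMSP cells, 47 lacked the NRF1 core and 41 lacked the ETS site. Of the 16 windows of other members 0 held the NRF1 core and 2 held the ETS site, those of Ndufs3 and Uqcrh. These 16 mix tested members that did not pass with members too low to be tested, such as Cox7a1 and Cox7b2. The 4 windows printed were chosen to show the motifs and do not stand for the rest. A match is a description of these letters in the window and not a binding site.

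The comparison of IMDP with IMSP cells addressed how the quiescent and the cycling CML populations differed under imatinib. Of 78 members, 61 (78.2%) were lower at a limma adjusted p of 0.05 over all genes, beside 23.3% of the 10072 genes tested. The median log2 fold change of members was -0.77, a 1.71-fold lower level, and that of all genes was -0.25. The 3 IMDP libraries lay below the 3 IMSP libraries for 68 members and above them for 0, against 32.8% of all genes below. Lower members were found in each complex, 25 of 35 in complex I, 3 of 4 in complex II, 7 of 8 in complex III, 11 of 14 tested in complex IV and 15 of 17 in complex V, and the medians of the complexes ran from -0.68 in complex II to -0.83 in complex IV. Atp5s, Atp5sl and Cox7a2l were not among the 61.

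**Figure D3:**
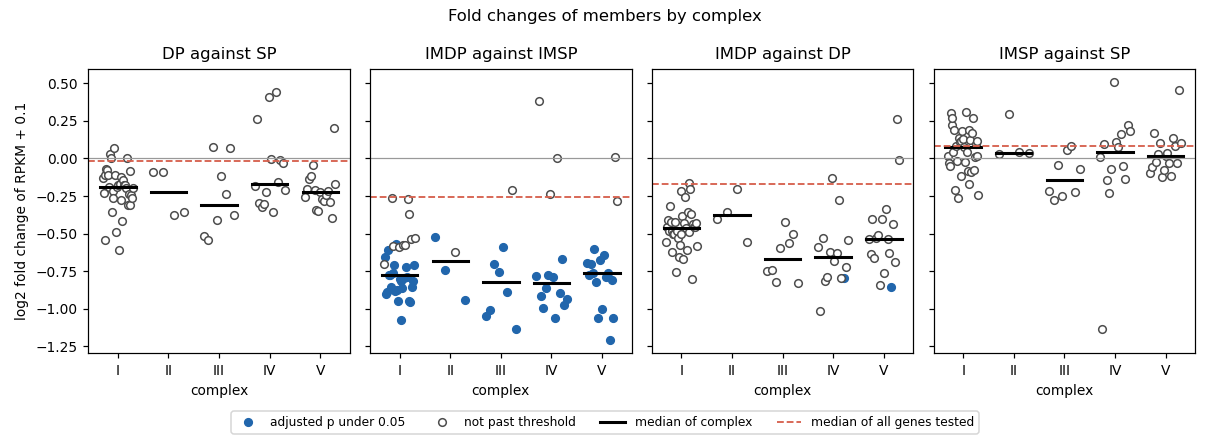
Each point is 1 member, placed by complex, with its log2 fold change of RPKM + 0.1 in 4 comparisons; filled points passed a limma adjusted p of 0.05, black bars are medians of a complex and the dashed line is the median of all genes tested. In IMDP against IMSP cells 61 points are filled and the medians of all complexes lie between -0.68 and -0.83, whereas 0 points are filled in DP against SP and in IMSP against SP cells.

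Complex V gave the member with the smallest p value. Atp5k on chromosome 5 (GRCm38, 108433244 to 108434448), subunit e of the membrane part of ATP synthase, was at 26.5, 25.9 and 20.3 RPKM in the IMSP libraries and at 9.28, 10.4 and 11.5 RPKM in the IMDP libraries. It stood at 20.6, 18.2 and 17.8 RPKM in DP and at 18.5, 25.4 and 22.4 RPKM in SP cells. The IMDP libraries were thus below all 9 others. Its log2 fold change in IMDP against IMSP cells was -1.21 ± 0.16 (SE), a 2.31-fold lower level (limma, adjusted p = 0.000483), and it turned to 0.08 under the length and level correction. The rotating and catalytic head was lower too, with log2 fold changes of -0.70 for Atp5a1 (alpha subunit), -0.77 for Atp5b (beta) and -0.70 for Atp5c1 (gamma), at limma adjusted p values of 0.00981, 0.00617 and 0.0218. Atp5b was the most abundant member of complex V, with 163, 150 and 125 RPKM in DP cells, 169, 179 and 153 in SP cells, 112, 80.1 and 91.0 in IMDP cells and 184, 157 and 143 in IMSP cells, and its IMDP libraries were below all others. Atp5o, the peripheral stalk protein OSCP, had a log2 fold change of -1.06 (limma, adjusted p = 0.00465). The 3 genes for the c subunit of the rotor ring, Atp5g1, Atp5g2 and Atp5g3, encode the same mature protein and were expressed at 44.0, 49.4 and 130 RPKM on average over 12 libraries. All 3 were lower in IMDP than in IMSP cells, 1.60-fold for Atp5g2 and 2.08-fold for Atp5g1, the smallest and largest of the 3 changes.

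In complex I, Ndufb8, an accessory subunit of the membrane arm on chromosome 19 (44548572 to 44555440), was at 8.87, 7.71 and 7.55 RPKM in IMSP and at 4.26, 4.06 and 4.80 RPKM in IMDP cells. The groups did not overlap, and the log2 fold change was -0.86 ± 0.14 (SE; limma, adjusted p = 0.0018). Ndufv1, the flavoprotein that binds NADH, was at 21.2, 21.1 and 18.4 RPKM in IMSP and at 13.9, 10.2 and 10.5 RPKM in IMDP cells, again without overlap. Its log2 fold change was -0.81 ± 0.15 (SE; limma, adjusted p = 0.00407). Ndufs1, another core subunit, was lower as well, with a log2 fold change of -0.72 (limma, adjusted p = 0.0362). Ndufa3, an accessory subunit and the most abundant member of complex I at 40.8 RPKM on average, changed by -0.78 (limma, adjusted p = 0.0061) and turned to 0.22 under the length and level correction. The 10 members of complex I that did not pass the threshold were Ndufa1, Ndufa6, Ndufa7, Ndufb4, Ndufb9, Ndufc2, Ndufs3, Ndufs4, Ndufs7 and Ndufv3, with log2 fold changes from -0.26 to -0.70.

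Complex II holds 4 proteins and has no subunit from the mitochondrial genome. Sdhb, the iron-sulfur subunit on chromosome 4 (140961203 to 140979193), was at 39.2, 38.1 and 37.5 RPKM in IMSP and at 29.2, 16.3 and 24.97 RPKM in IMDP cells. All IMDP libraries were below all IMSP libraries, and the spread among IMDP libraries was the wider. The log2 fold change was -0.74 (limma, adjusted p = 0.0156) for Sdhb, -0.52 (limma, adjusted p = 0.0341) for Sdha, the flavoprotein, and -0.94 (limma, adjusted p = 0.0157) for Sdhd, a membrane anchor. The other anchor, Sdhc, had a log2 fold change of -0.62 and did not pass (limma, adjusted p = 0.0539). For Sdha the sign turned to 0.04 under cyclic loess and to 0.03 under the length and level correction.

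In complex III, Uqcr10, a small subunit on chromosome 11 (4701973 to 4704342), was at 22.6, 19.2 and 24.4 RPKM in IMSP and at 13.2, 8.97 and 9.93 RPKM in IMDP cells. The groups did not overlap and the log2 fold change was -1.05 ± 0.18 (SE; limma, adjusted p = 0.00252), which turned to 0.29 under the length and level correction. Uqcrfs1, the Rieske iron-sulfur protein, and Uqcrc1, a core protein, changed by -0.89 and -0.76 (limma, adjusted p = 0.00752 and 0.0189). Uqcr11, the most abundant member at 60.6 RPKM on average, changed by -1.01 (limma, adjusted p = 0.0177) and turned to 0.21 under that correction. Uqcrh, the hinge protein at cytochrome c1, had a log2 fold change of -0.21 and did not pass (limma, adjusted p = 0.185), with 45.4, 41.1 and 40.3 RPKM in IMSP and 37.6, 37.8 and 34.4 RPKM in IMDP cells.

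In complex IV, Cox7b on the X chromosome (106015700 to 106022450) was at 36.1, 31.4 and 29.0 RPKM in IMSP and at 19.8, 15.6 and 16.4 RPKM in IMDP cells. The groups did not overlap and the log2 fold change was -0.90 ± 0.15 (SE; limma, adjusted p = 0.0028). Cox4i1, Cox5a and Cox5b, which surround the catalytic core, changed by -0.78, -0.92 and -0.99 (limma, adjusted p = 0.00855, 0.0163 and 0.0144), and Cox4i1 turned to 0.03 under the length and level correction. Ndufa4, the most abundant of all members at 169 RPKM on average, was at 252, 194 and 189 RPKM in IMSP and at 158, 81.4 and 103 RPKM in IMDP cells, and changed by -0.94 (limma, adjusted p = 0.0226).

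**Figure D4:**
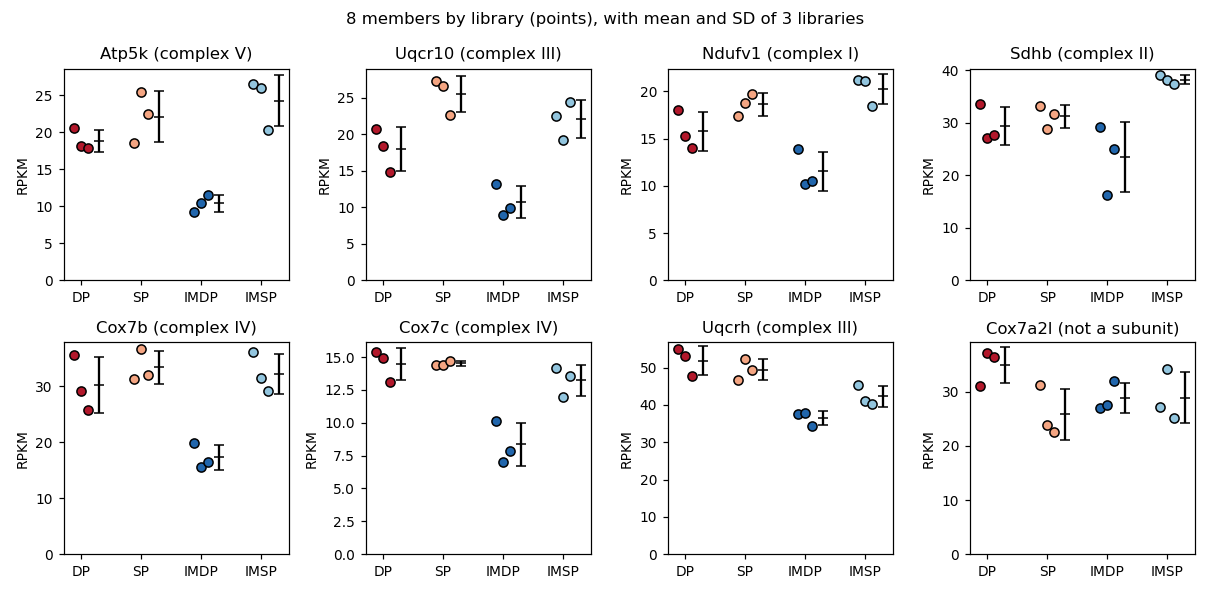
RPKM of 8 members in every library (points) with mean and SD of 3 libraries per group; the axes start at 0. Atp5k, Uqcr10, Ndufv1, Sdhb and Cox7b are lower in the IMDP than in the IMSP libraries without overlap, Cox7c and Uqcrh are lower in the IMDP than in the DP libraries without overlap, and Cox7a2l shows overlapping groups.

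Complex IV has isoforms that differ between tissues, and each was listed separately. Cox4i1 was at 71.3 RPKM and Cox4i2, the isoform of lung and of low oxygen, at 1.59 RPKM on average over 12 libraries. Cox6a1, Cox6b1 and Cox8a stood at 75.7, 55.3 and 41.0 RPKM, whereas the muscle forms Cox6a2 and Cox8b and the testis form Cox6b2 stood at 0.186, 0.0306 and 1.69 RPKM. Cox7a2 was at 33.6 RPKM and the muscle form Cox7a1 at 0.476 RPKM. Cox7b2 and Cox8c were listed at 0 in all 12 libraries. Ndufa4l2, a relative of Ndufa4 known for its induction at low oxygen, was at 0.0573 RPKM, from 0 to 7 reads in a library. Cox6a2, Cox7a1, Cox7b2, Cox8b, Cox8c and Ndufa4l2 are the 6 members that were not tested.

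Among the isoforms of low level, Cox4i2 had 1.89, 2.64 and 2.33 RPKM in DP cells, 1.32, 1.47 and 3.31 in SP cells, 0.914, 1.71 and 0.777 in IMDP cells and 0.491, 1.56 and 0.640 in IMSP cells. The groups overlapped between G0M+ and G0M- cells. Averaged over treatments its log2 fold change was 0.32 in G0M+ against G0M- cells (limma, adjusted p = 0.449), the largest against the direction of the other members. Cox7a2l followed with 0.23 (limma, adjusted p = 0.156) and Atp5s, a coupling factor, with 0.11 (limma, adjusted p = 0.624). Cox7a2l on chromosome 17 (83501918 to 83517330) was at 31.1, 37.3 and 36.4 RPKM in DP cells, 31.2, 23.8 and 22.5 in SP cells, 27.1, 27.6 and 32.0 in IMDP cells and 27.2, 34.2 and 25.2 in IMSP cells. The groups overlapped, with a log2 fold change in DP against SP cells of 0.45 ± 0.16 (SE; limma, adjusted p = 0.251). In G0M+ against G0M- cells Cox7a2l passed the threshold as higher after median scaling, with a log2 fold change of 0.38.

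The vehicle-treated populations were compared in the same way. Of the 78 members, 0 passed the limma threshold and 5 had an unadjusted p under 0.05, beside 1.98% of all genes tested that were lower. At the median, members changed by -0.20 against -0.02 for all genes, and 68 of 78 members had a value below 0. DP libraries lay below all SP libraries for 4 members, against 12.7% of all genes. Uqcr10 had the smallest p, with 20.8, 18.4 and 14.8 RPKM in DP and 27.4, 26.6 and 22.7 RPKM in SP cells. Its DP libraries were below its SP libraries, with a log2 fold change of -0.51 ± 0.18 (SE; limma, adjusted p = 0.222), which turned to 0.06 under the length and level correction. Cox7a2l, Ndufa11, Ndufb6 and Ndufb3 followed, the last 3 being accessory subunits of complex I with log2 fold changes of -0.54, -0.61 and -0.49 (limma, adjusted p = 0.298, 0.341 and 0.379). With neighbouring library numbers as a block, 3 members were lower, namely Ndufb6, Uqcr11 and Uqcrc1, a smaller share than the 5.56% of all genes that were lower in that fit. With median scaling and that block 6 members were lower and 1 higher, beside 7.07% and 7.64% of all genes.

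Library pairs with neighbouring numbers gave the same comparison; what the numbers stand for is not given. In the 3 imatinib pairs 76, 75 and 75 of 78 members were lower in the G0M+ library, beside 63.7%, 76.6% and 62.4% of all genes. In the vehicle pairs the numbers were 72, 53 and 55 members, beside 58.5%, 48.1% and 47.9% of all genes. The median difference over members was -0.69, -0.91 and -0.68 in the imatinib pairs and -0.37, -0.10 and -0.17 in the vehicle pairs on the log2 scale. The members were thus lower in the G0M+ library of each pair by count, most evenly in the imatinib pairs.

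Averaged over both treatments, 54 of 78 members were lower and 0 higher in G0M+ than in G0M- cells, beside 21.0% of all genes that were lower. Cyclic loess left 16 lower and 2 higher, beside 10.3% and 9.59% of all genes. The length and level correction left 4 lower and 10 higher, beside 9.87% and 10.3% of all genes. The median log2 fold change of members was -0.49, against -0.13 for all genes. Atp5k (-0.71), Uqcr10 (-0.78), Atp5o (-0.73), Ndufb8 (-0.49) and Ndufv1 (-0.53) had the smallest p values, with limma adjusted p values from 0.00119 to 0.00548, and under the length and level correction Atp5k turned to 0.21 and Uqcr10 to 0.17. The calls covered 20 of 35 members in complex I, 3 of 4 in complex II, 6 of 8 in complex III, 10 of 14 in complex IV and 15 of 17 in complex V.

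Whether imatinib changed the chain within a population was examined in IMDP against DP and in IMSP against SP cells. In G0M+ cells 2 of 78 members were lower, Atp5k and Cox7c, beside 0.338% of all genes tested, and 53 members had an unadjusted p under 0.05. At the median, members changed by -0.52, against -0.17 for all genes, and IMDP libraries lay below all DP libraries for 44 members and above them for 0, beside 19.0% of all genes below. Cox7c, a subunit of complex IV on chromosome 13 (86044816 to 86046904), was at 15.4, 14.9 and 13.1 RPKM in DP and at 10.2, 7.04 and 7.89 RPKM in IMDP cells, with 14.4, 14.4 and 14.7 RPKM in SP and 14.2, 12.0 and 13.5 RPKM in IMSP cells. The IMDP libraries were below all others, and the log2 fold change was -0.80 ± 0.15 (SE; limma, adjusted p = 0.0468). For Atp5k it was -0.86 ± 0.16 (SE; limma, adjusted p = 0.0468). Cox7b (-0.80), Uqcrh (-0.50) and Atp5d, the delta subunit of ATP synthase (-0.67), came next and did not pass (limma, adjusted p = 0.0538, 0.0692 and 0.0732). Uqcrh turned to 0.09 under the length and level correction. In complex III all 8 members were lower in IMDP than in DP libraries without overlap, and 0 passed. Leaving out the first IMDP library raised the count of lower members from 2 to 11, and leaving out any 1 of the other 11 libraries gave 0.

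In G0M- cells, 0 of 78 members passed between IMSP and SP cells, where 0.0% of all genes passed and 2 members had an unadjusted p under 0.05. The median was 0.03 against 0.08 for all genes, and the libraries did not overlap for 6 members (2 lower and 4 higher), beside 13.8% of all genes. The smallest p belonged to Cox4i2, with a log2 fold change of -1.13 ± 0.44 (SE; limma, adjusted p = 0.516). Ndufb8 (0.31), Atp5s (0.46), Uqcrh (-0.23) and Cox6b2 (0.51) came next. Averaged over both populations, 0 members passed for imatinib against vehicle, beside 0.854% of all genes in either direction, and 30 had an unadjusted p under 0.05. Those with the smallest p were Uqcrh (-0.36), Cox7c (-0.47), Cox7b (-0.42), Uqcr10 (-0.48) and Ndufa9 (-0.51), at limma adjusted p values from 0.055 to 0.0892.

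The difference of differences, that is the population effect with imatinib minus that with vehicle, passed for 0 members and 0.0% of all genes by limma. It had an unadjusted p under 0.05 for 26 of 78 members and a median of -0.57, against -0.25 for all genes. The effects of population with and without imatinib are therefore not shown to differ for any member. Atp5k had the smallest p, with an interaction of -0.99 ± 0.22 (SE; limma, adjusted p = 0.534).

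The count of members in IMDP against IMSP cells was read against the level and length of transcripts, since members had a median of 22.8 RPKM and 1675 bases of exon, against 4.6 RPKM and 4537 bases for all genes tested. Of the 78 members, 66 lay in the top quartile of genes by level (from 9.21 RPKM) and 59 in the quartile of the shortest (up to 2870 bases). Among the 694 other genes in both quartiles, 51.2% were lower in IMDP than in IMSP cells and the median log2 fold change was -0.57, between the value of all genes and that of members. Scaling each library to the same median left 30 members lower and 0 higher, beside 9.33% of all genes lower. Cyclic loess, which removes differences between libraries that depend on level, left 10 members lower, beside 7.06% of all genes. A correction of each library for exon length and level left 4 lower, namely Atp5b, Atp5g3, Ndufb8 and Uqcrq, beside 6.5% of all genes, and 6 higher, namely Cox7a2l, Ndufa1, Ndufa2, Ndufa6, Ndufb9 and Uqcrh, beside 6.1% of all genes. The members' median relative to all genes was -0.52 as reported, -0.26 under cyclic loess and -0.05 under the length and level correction. These corrections would also remove any difference in the cells that followed level or length, and the part of either in the result was not tested. Leaving out the first IMSP library, the second IMDP library or the third IMDP library lowered the count from 61 to 24, 29 or 39. The share of all genes that were lower was 8.46%, 10.8% and 14.0% in these fits.

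**Figure D5:**
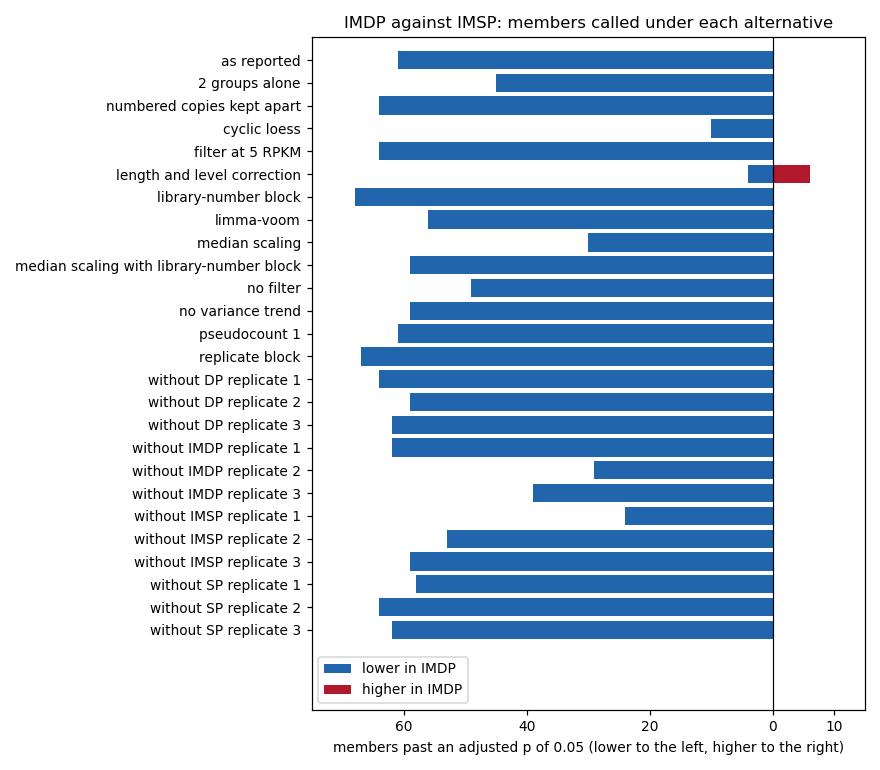
Bars count the members past a limma adjusted p of 0.05 in IMDP against IMSP cells, lower to the left and higher to the right of 0, as reported and under each alternative. The count is 61 as reported and runs from 4 lower with 6 higher under the length and level correction to 68 lower with neighbouring library numbers as a block.

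Genes that build or serve the chain were described by the same fit. In IMDP against IMSP cells 23.3% of all genes were lower. After median scaling, cyclic loess and the length and level correction 9.33%, 7.06% and 6.5% were lower, and after the last 6.1% were higher. Of 45 tested assembly factors, 11 were lower and 0 higher, a share near that of all genes, with a median log2 fold change of -0.47, and 3 were higher and 0 lower under the length and level correction. Of 10 electron carriers and transporters of ATP, 7 were lower, and 5, 2 and 1 were lower after median scaling, cyclic loess and the length and level correction. Among the 7 was Cycs, cytochrome c, with 27.5, 17.3 and 20.6 RPKM in IMSP and 12.1, 6.70 and 8.49 RPKM in IMDP cells. Its log2 fold change was -1.27 (limma, adjusted p = 0.0126). Of the 17 citric acid cycle and pyruvate dehydrogenase genes, 14 were lower, and 6, 5 and 4 under the same 3 scalings. Cs, citrate synthase, had a log2 fold change of -0.63 (limma, adjusted p = 0.0256). Of 16 tested regulators of mitochondrial biogenesis 4 were lower, again a share near that of all genes, among them Nrf1 (-0.67; limma, adjusted p = 0.0056) and Gabpa (-0.73; limma, adjusted p = 0.0135). Tfam, the mitochondrial transcription factor, had a log2 fold change of -0.29, the nuclear receptor Esrra -0.36, the coactivators Ppargc1b and Pprc1 -0.06 and -0.30 and Polrmt, the mitochondrial RNA polymerase, -0.39, and these 5 did not pass (limma, adjusted p from 0.136 to 0.896). Ppargc1a was under the filter, at 4 to 26 reads in a library. In DP against SP cells, 0 genes of these 4 lists passed. The 13 subunits of the mitochondrial genome were listed at 0 in all libraries, so that nuclear and mitochondrial subunits cannot be compared in these files. Ndufab1 and Usmg5, which belong to the complexes, and Atpif1, an inhibitor protein and not a subunit, fall outside the naming rule. The log2 fold changes of Ndufab1, Atpif1 and Usmg5 were -0.84, -0.89 and -0.87 in IMDP relative to IMSP cells (limma, adjusted p = 0.0252, 0.00483 and 0.0156).

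Levels of proliferation genes and of marker genes of other cells were measured in the same libraries. Of 20 proliferation genes, 16 were lower in IMDP than in IMSP cells and 10 in DP than in SP cells, beside 23.3% and 1.98% of all genes, with medians of -2.83 and -1.91. In DP against SP cells 11 were lower and 3 higher both under cyclic loess and under the length and level correction. Of all genes, 2.38% were lower and 0.477% higher under the former, and 2.41% and 0.597% under the latter. Of the marker lists, macrophage genes summed to 7.0 to 10.9 RPKM in IMDP against 0.287 to 1.75 in IMSP cells (2 of 4 tested genes higher), and neutrophil genes to 75.6 to 292 against 520 to 2230 (0 of 5 tested genes passed). Mast cell and basophil genes summed to 14.9 to 181 RPKM in IMDP against 7.92 to 24.4 in IMSP cells (1 of 7 tested genes higher; Tpsab1 at 0 throughout), and to 76.3 to 326 in DP against 10.5 to 23.0 in SP cells (2 of 7 higher). Erythroid genes summed to 65.6 to 235 against 24.8 to 110 in IMDP and IMSP cells (1 of 5 higher), megakaryocyte genes to 11.5 to 73.2 against 6.45 to 27.1 (0 of 4), lymphoid genes to 1.93 to 7.78 against 0.614 to 5.32 (0 of 1; Ighm at 0 throughout) and the 8 LSK genes to 135 to 244 against 168 to 189 (1 of 8 higher). The part of these groups in the lower subunit RNA was not tested.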

How the data were processed

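RNA of 12 libraries of 100 sorted cells, 3 per group, was analysed. The authors mapped the reads to GRCm38 (mm10) with CLC Genomics Workbench per the methods, while HISAT2 and featureCounts stand in the reporting summary, and the submitters' processing notes name edgeR. The deposited values are RPKM for 48737 features, scaled by transcript length and library total. Whole reads behind the values were recovered for 17735 of 17735 features above 0, within 0.08 of a read (less certain for features with few reads), and gave totals of 11.37 to 20.57 M reads per library. Intervals were not drawn from these reads, as PCR copies are not marked. Numbered copies were summed, so reads shared between near-identical copies and pseudogenes remain uncertain.

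Genes that reached 1 RPKM in 3 or more libraries were fitted with limma 3.58.1 in R 4.3.3 on log2(RPKM + 0.1), with 4 group means, a variance trend and Benjamini-Hochberg adjustment over all 10072 genes (threshold 0.05). Fold changes are on this scale, which understates changes of low genes. The fit was tested on simulated data. Averages over populations or treatments, and their interaction, were contrasts of the same fit. Equally numbered IMDP and IMSP libraries deviated together (correlations 0.43, 0.65 and 0.46 across genes), which pairs them by the data and not by the labels, and equally numbered DP and SP libraries did not (-0.19, -0.30 and -0.10). Exon lengths and positions came from GENCODE M21 (96.5% of tested genes with a length). Tables were made with pandas 2.3.3 and numpy 2.4.6 and figures with matplotlib 3.10.9 in Python 3.11.15.

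The members, the gene lists and the tests were chosen with earlier results of these data known. Genes named were the most abundant member of each complex, the 5 members with the smallest p in each pairwise or averaged comparison, the 3 largest against the majority, core subunits, isoforms and regulators. The values of 1 member are not reported here by name, and it is counted in all totals. The alternatives were another pseudocount (1), filter (none or 5 RPKM), scaling to the median, variance model, limma-voom on recovered reads (283 genes higher and 2281 lower in IMDP than in IMSP cells), copies kept apart, blocks and each library left out. Cyclic loess, the length and level correction (loess, span 0.3) and median scaling with the library-number block were added after seeing the data.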

Additional observations from a re-analysis of the deposited data

How the results depend on the processing

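As the limits of these data, 3 libraries of 100 cells per group leave p values that move with 1 library, treatment and library order cannot be told apart, and scaling decides many calls. Members called in IMDP against IMSP cells (61 as reported) came to 30 after median scaling, 10 under cyclic loess and 10 (4 lower) under the length and level correction, and to 24 to 64 with 1 library left out. In G0M+ against G0M- cells (54), they came to 18 under cyclic loess (16 lower, beside 10.3% of all genes, and 2 higher, beside 9.59%). Under the length and level correction they came to 14 (4 lower, beside 9.87%, and 10 higher, beside 10.3%). The 10 higher were Cox6b1, Cox7a2l, Cox8a, Ndufa1, Ndufa2, Ndufa3, Ndufa6, Ndufb11, Ndufc2 and Uqcrh. With 1 library left out the calls came to 31 to 61 (34, 31, 34, 35 and 32 without DP replicate 2, DP replicate 3, SP replicate 2, IMDP replicate 2 and IMSP replicate 1). Median scaling split them into 38 lower and 1 higher. In IMDP against DP cells (2), they came to 0 with the 2 groups alone, cyclic loess, the length and level correction, limma-voom, median scaling, no filter or no variance trend, to 6 with the filter at 5 RPKM, and to 0 to 11 with 1 library left out. In DP against SP cells (0), they came to 1 under the length and level correction, 3 with the library-number block, 7 with median scaling and that block (6 lower, beside 7.07% of all genes, and Cox7a2l higher, beside 7.64%) and 0 to 0 with 1 library left out. For imatinib against vehicle (0), they came to 1 under cyclic loess, 1 at the 5 RPKM filter, 3 after median scaling and 0 to 2 with 1 library left out. IMSP against SP cells and the interaction stayed at 0 under every alternative that could be fitted.

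With the replicate number as a block, 67 members were called in IMDP against IMSP cells, beside 25.4% of all genes lower. In G0M+ against G0M- cells 61 were called, beside 23.0%. In IMDP against DP cells 2 were called (Cox7b and Cox7c, where Atp5k did not pass), beside 0.357%, and 0 in the others. With pairs of neighbouring library numbers as the block, 68 and 67 were called in the first 2 comparisons, beside 35.9% and 33.4% of all genes lower. These pairs lie within a treatment, so comparisons between treatments cannot be fitted with them.

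In IMDP against IMSP cells the median of members minus that of all genes was -0.52, and -0.26 under cyclic loess, -0.046 under the length and level correction, -0.38 at the 5 RPKM filter, -0.71 with no filter and -0.59 to -0.45 with 1 library left out. In IMDP against DP cells it was -0.35, and -0.17 and -0.066 under the 2 corrections (-0.43 to -0.24 with 1 left out). In G0M+ against G0M- cells it was -0.35, and -0.18 and -0.013 (-0.39 to -0.32). For the interaction it was -0.32, and -0.18 and -0.063 (-0.41 to -0.21). For imatinib against vehicle it was -0.19, and -0.023 under the length and level correction (-0.23 to -0.14). In DP against SP cells it was -0.18, and reversed to 0.009 under that correction (-0.26 to -0.09). In IMSP against SP cells it was -0.05 (-0.12 to 0.03). Of 50 results of single members, signs reversed in 10 under the length and level correction and in 1 under cyclic loess. In IMDP against IMSP cells these were Atp5k 0.083, Cox4i1 0.033, Ndufa3 0.22, Sdha 0.033 (0.04 under cyclic loess), Uqcr10 0.29 and Uqcr11 0.21. In G0M+ against G0M- cells they were Atp5k 0.21 and Uqcr10 0.17, in DP against SP cells Uqcr10 0.062 and in IMDP against DP cells Uqcrh 0.086. The cause was not tested.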

Other observations

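The mitochondrial ribosome, which translates the subunits encoded in the organelle, showed the same direction as the subunits. Of 77 tested genes of its 2 subunits, 50 were lower in IMDP than in IMSP cells and 0 higher, beside 23.3% of all genes lower, with a median log2 fold change of -0.77, and 0 passed in DP against SP cells. After median scaling 17 were lower in IMDP cells, under cyclic loess 16 and under the length and level correction 8, with 0 higher in each, beside 9.33%, 7.06% and 6.5% of all genes lower. Among them Mrpl12 was at 32.7 ± 4.42 RPKM (SD, n = 3) in IMSP and at 15.2 ± 3.75 RPKM in IMDP cells (log2 fold change -1.12; limma, adjusted p = 0.00499), and it was named after its values were seen.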
